A study of Mus musculus with 9 samples.

Results

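Cxcl9, Cxcl10 and Cxcl11 encode the ligands of the chemokine receptor CXCR3, and their messenger RNA was followed in macrophages of the mouse peritoneal cavity after an injection of interferon. The set was defined by name and held 3 of the 19752 genes with a probe set of their own on the array, each represented by a single probe set. The 9 arrays fell into 3 groups, all of male C57BL/6 mice aged 6 weeks. The IFNa group (n = 4) had received 10000 U of recombinant interferon alpha, a type I interferon, under the skin 2 h before the cells were collected. The IFNg group (n = 2) had received 8000 U of recombinant interferon gamma, the type II interferon, by the same route and for the same time. The untreated group (n = 3) had received nothing, so effects of the injection itself and of interferon cannot be told apart in comparisons with it. The interferons also differed in dose, so the direct comparison is between these 2 treatments and not between equal amounts. Cells were sorted in 2 rounds of flow cytometry. Sample labels give F4/80 and ICAM2 for the treated cells and F4/80 alone for the untreated cells, whereas the text of the series names both kinds of marker for all cells. If the labels hold, treatment and sort markers cannot be told apart in comparisons with untreated cells. The labels do not say that each array came from a separate mouse, so p-values measure the spread between these samples, which may be technical. In the descriptions, IFNa replicates 1 and 2 both carry the number 1 under differently written names, and that of replicate 1 names interferon without its type. The titles number them apart and name IFNa for both. Their values were not the same: the median absolute log2 difference between them over all genes was 0.12, against 0.086 for IFNa replicates 2 and 3 and 0.090 for the IFNg pair. All remaining pairs of arrays within a group differed more, by 0.13 to 0.39, so IFNa replicates 1 and 2 were among the more alike pairs. Without replicate 1 the IFNa rise of Cxcl10 was log2 5.57 and Cxcl9 in IFNa minus IFNg was -4.03, and without replicate 2 they were 5.56 and -4.06.

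CXCR3 sits mainly on activated T cells and NK cells, which move towards cells that release its ligands. Cxcl9 is known as the ligand gene most dependent on IFNg. Cxcl10 responds to both types of interferon and to NF-kB signals, through interferon-stimulated response elements (ISRE) and NF-kB sites near its start. Cxcl11 is the ligand with the highest affinity for CXCR3, but C57BL/6 mice carry a defective copy of the gene. In the RefSeq annotation of the C57BL/6J assembly all 3 genes lie on chromosome 5, in the order Cxcl9, Cxcl10 and Cxcl11. Cxcl9 and Cxcl10 are annotated there as protein coding and Cxcl11 as a transcribed pseudogene.

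The promoters of Cxcl9 and Cxcl10 are shown because these were the ligand genes that responded, and they did so differently. Each runs from 250 bases before the gene start to 50 bases after it, 5′ to 3′ on the minus strand, from RefSeq on GRCm38.p6, at chr5:92328030-92328329 for Cxcl9 and chr5:92348840-92349139 for Cxcl10. Capitals mark the letters matched by a motif. Of the 3 ligand genes, 2 had a promoter in the table used, and Cxcl11 is named only.
Cxcl9: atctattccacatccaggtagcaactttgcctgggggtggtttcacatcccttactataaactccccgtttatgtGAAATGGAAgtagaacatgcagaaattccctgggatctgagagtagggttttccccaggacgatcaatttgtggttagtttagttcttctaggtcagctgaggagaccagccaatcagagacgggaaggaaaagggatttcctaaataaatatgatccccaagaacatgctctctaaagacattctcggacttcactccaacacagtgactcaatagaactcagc
Cxcl10: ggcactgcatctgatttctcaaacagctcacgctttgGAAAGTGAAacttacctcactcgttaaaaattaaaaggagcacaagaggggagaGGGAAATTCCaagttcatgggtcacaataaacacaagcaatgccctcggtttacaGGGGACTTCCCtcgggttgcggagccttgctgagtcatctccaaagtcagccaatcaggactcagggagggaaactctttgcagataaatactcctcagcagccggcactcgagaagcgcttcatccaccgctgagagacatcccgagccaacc
The motifs searched on both strands were the ISRE core GAAANNGAA, bound by interferon regulatory factors; the GAS motif TTCNNNGAA, known from IFNg-responsive promoters; and the NF-kB consensus. The ISRE core occurred once in each promoter, as GAAATGGAA beginning 175 bases before the start of Cxcl9 and as GAAAGTGAA beginning 213 bases before the start of Cxcl10. The NF-kB consensus matched the Cxcl10 promoter in 3 places, beginning 159, 104 and 103 bases before the start, the last 2 sharing 9 bases, and did not match that of Cxcl9. GAS had no match in either window. Of all 32851 promoters of the same length in the table, 8.56% held the ISRE core, 8.30% GAS and 8.46% the NF-kB consensus. A match describes letters and not a bound site. The absence of one covers only these windows and full matches, so a stretch close to a motif was not counted.

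Cxcl9 was high after IFNg alone among the 3 groups. Its intensity was 131, 141, 146 and 161 in the IFNa arrays, 2854 and 2068 in the IFNg arrays, and 119, 146 and 98.9 in the untreated arrays. Both IFNg arrays stood far above every other array, while the IFNa and untreated ranges overlapped. Mean log2 levels were 7.17 ± 0.12 after IFNa, 11.25 ± 0.33 after IFNg and 6.90 ± 0.28 in untreated cells (SD, n = 4, 2 and 3). In these bulk samples, more cells with the transcript and more transcript per cell cannot be told apart. Relative to untreated cells, Cxcl9 rose after IFNg by log2 4.34 ± 0.20 (SE), or 20.3-fold with a 95% interval of 14.9 to 27.6 (limma, adjusted p = 6.85e-06, higher in 2 of 2 arrays). It was the 6th largest log2 rise of 19752 genes after IFNg, a comparison in which 1.24% of genes were called higher and 0.111% lower at an adjusted p under 0.05. For 12.3% of all genes both IFNg arrays lay above every untreated array, so the separation alone says little with groups of this size. The untreated level of Cxcl9 lay just under the 95th percentile of the smell receptor genes measured, log2 6.96, which marks the low end of the arrays here, so the size of the rise and its rank are not exact.

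After IFNa, the Cxcl9 change from untreated was log2 0.27 ± 0.17 (95% interval -0.10 to 0.64) and did not pass the test (limma, adjusted p = 0.661). The interval, 0.932-fold to 1.56-fold, lies far below the IFNg interval. Only 1 of 4 IFNa arrays, replicate 4, exceeded every untreated array. With weights estimated for each array the change was log2 -0.0046 (adjusted p = 0.986), so its direction was not settled.

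Cxcl10, in contrast, was high after both interferons. Intensities were 6827, 6922, 8963 and 11586 in the IFNa arrays, 5670 and 4847 in the IFNg arrays, and 221, 206 and 149 in the untreated arrays. Every treated array exceeded every untreated array, and every IFNa array exceeded both IFNg arrays. Mean log2 levels were 13.03 ± 0.36 after IFNa, 12.36 ± 0.16 after IFNg and 7.56 ± 0.31 in untreated cells (SD, n = 4, 2 and 3). The rise over untreated was log2 5.47 ± 0.21 after IFNa, or 44.2-fold with an interval of 31.8 to 61.5 (limma, adjusted p = 1.35e-06, 4 of 4 arrays). It was the 5th largest log2 rise in that comparison, in which 1.79% of genes were called higher and 0.856% lower, and in which 3.68% of genes had every IFNa array above every untreated array. After IFNg the rise of Cxcl10 was log2 4.79 ± 0.25, or 27.7-fold with an interval of 18.7 to 41.1 (limma, adjusted p = 1.58e-05, 2 of 2 arrays), the 3rd largest.

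Cxcl11 stayed at the low end of the arrays in all groups. Its intensity was 61.8, 61.6, 61.8 and 72.4 in the IFNa arrays, 63.0 and 54.7 in the IFNg arrays, and 78.9, 61.8 and 61.8 in the untreated arrays. The 3 groups overlapped. Mean log2 levels were 6.01 ± 0.12, 5.87 ± 0.14 and 6.07 ± 0.20 after IFNa, after IFNg and in untreated cells (SD, n = 4, 2 and 3). The changes were log2 -0.06 ± 0.13 for IFNa against untreated (95% interval -0.35 to 0.23) and -0.19 ± 0.16 for IFNg against untreated (-0.54 to 0.16), with limma adjusted p = 0.948 and 0.761. The first of these was log2 0.057 without untreated replicate 1. The same value, log2 5.95, stood in 4 arrays, and 5.7% of all genes had one value in at least 4 of the 9 arrays. The level lay inside the range of the 1027 smell receptor genes measured, a family that macrophages are not known to use widely, whose median was log2 5.32. Probe sets differ in affinity, so this places the Cxcl11 signal at the low end and does not give an amount of RNA.

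**Figure D1:**
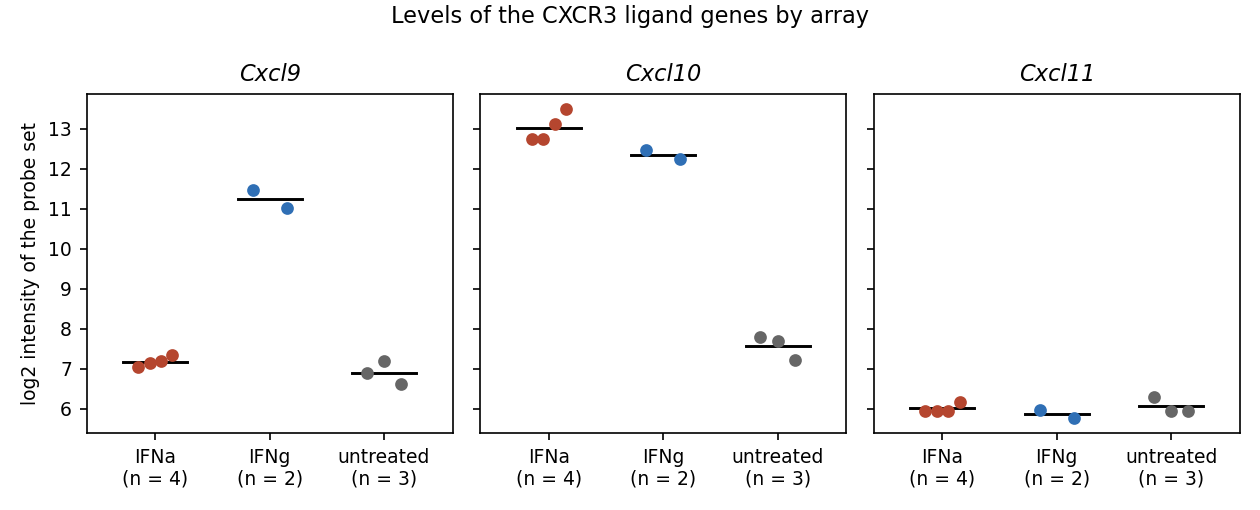
Log2 intensity of the Cxcl9, Cxcl10 and Cxcl11 probe sets in each array (points) after IFNa, after IFNg and in untreated cells, with group means as horizontal lines. Cxcl9 reaches 11.01 to 11.48 in the IFNg arrays and at most 7.33 elsewhere, Cxcl10 is at 12.24 or above in all 6 treated arrays, and Cxcl11 lies between 5.77 and 6.30 in all 9 arrays.

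The direct comparison asked how the ligands differ between the 2 interferons. Cxcl9 was lower after IFNa than after IFNg by log2 -4.07 ± 0.19 (95% interval -4.49 to -3.65), which is 16.8-fold (limma, adjusted p = 1.11e-05), with 4 of 4 IFNa arrays below both IFNg arrays. No gene of the 19752 had a lower value in this comparison, in which 0.440% of genes were called higher and 0.537% lower after IFNa. The next lowest was Acod1, the gene of the itaconate-producing enzyme, at -2.99 ± 0.18. The highest were the antiviral genes Rsad2, Ifit3 and Ifit2, at 5.39, 5.34 and 5.21.

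Cxcl10 lay on the other side of zero, at log2 0.67 ± 0.24 (95% interval 0.14 to 1.21), a ratio of 1.60 with an interval of 1.10 to 2.32. All 4 IFNa arrays exceeded both IFNg arrays, as they did for 12.8% of all genes, whereas the reverse separation seen for Cxcl9 held for 15.6%. The difference did not pass the test over all genes (limma, adjusted p = 0.474). It passed with array weights, at log2 0.53 and adjusted p = 0.0246. Cxcl11 differed by 0.13 ± 0.15 (-0.20 to 0.46, adjusted p = 0.805), and its sign turned under quantile normalization, to -0.011.

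**Figure D2:**
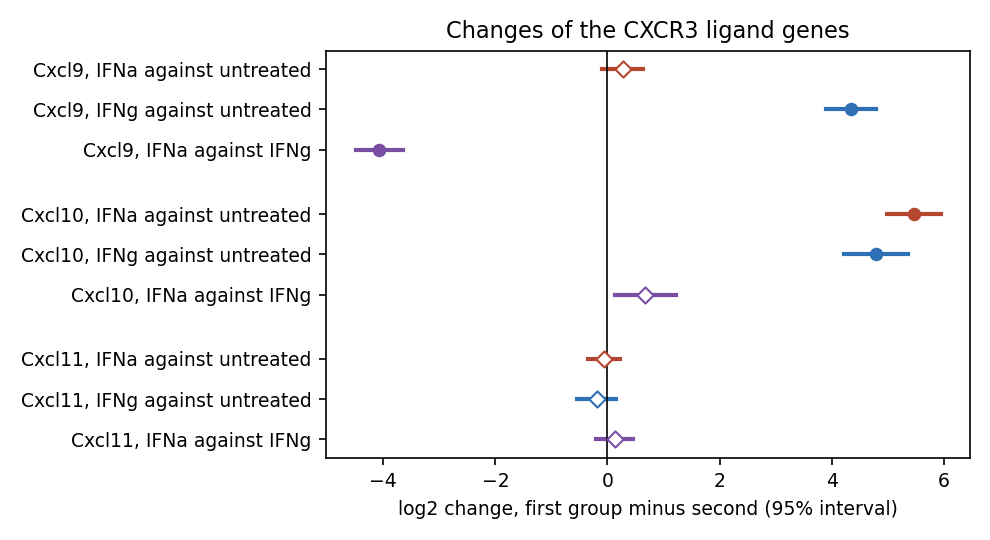
Log2 change of each ligand gene in the 3 comparisons, first group minus second, with 95% intervals from limma. Filled circles passed an adjusted p under 0.05 and open diamonds did not. The 4 filled changes are Cxcl9 after IFNg (4.34), Cxcl9 in IFNa minus IFNg (-4.07) and Cxcl10 after IFNa (5.47) and IFNg (4.79).

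**Figure D3:**
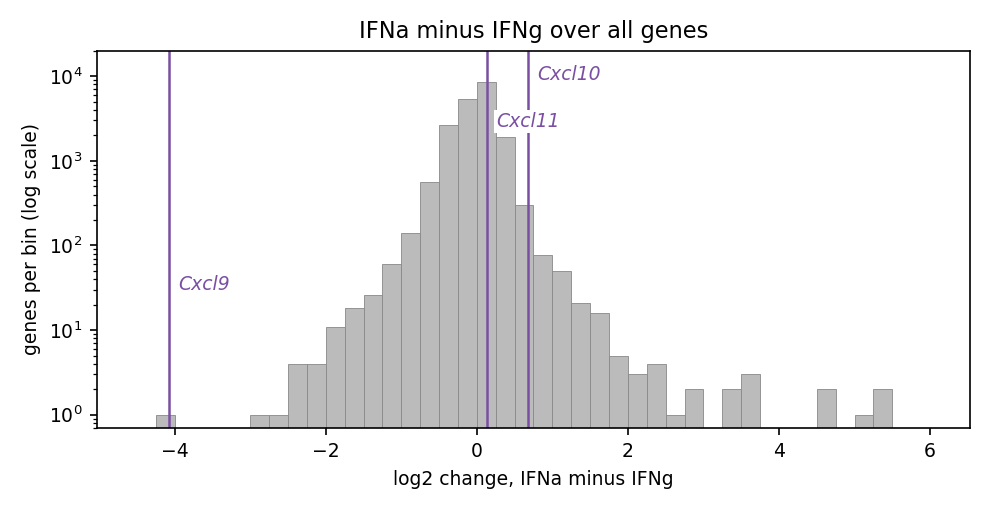
Number of genes (log axis) in bins of the log2 change IFNa minus IFNg over 19752 genes, with the 3 ligand genes as vertical lines. Cxcl9 at -4.07 is the lowest value, Cxcl10 at 0.67 is the 237th from the highest, and Cxcl11 at 0.13 lies in the tallest bin.

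Ratios between ligands within an array remove a change of scale shared by both probe sets. Since probe sets differ in affinity, only differences of a ratio between groups were read. Cxcl11 lay at the low end in all 9 arrays, so ratios with it mostly restate the level of the other ligand over a floor and their sizes are not exact. Cxcl9 outside the IFNg group also lay close to the low end. The log2 ratio of Cxcl9 to Cxcl10 was -5.70, -5.62, -5.94 and -6.17 in the IFNa arrays, -0.99 and -1.23 in the IFNg arrays, and -0.90, -0.50 and -0.59 in the untreated arrays. It was lower after IFNa than in any other array, and the IFNg arrays lay just below the untreated ones. The mean was -5.86 ± 0.25 after IFNa, -1.11 ± 0.17 after IFNg and -0.66 ± 0.21 in untreated cells (SD). IFNa minus IFNg was log2 -4.75, a 26.9-fold lower ratio after IFNa. IFNa minus untreated was -5.20, and IFNg minus untreated was -0.45.

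The ratio of Cxcl11 to Cxcl10 was low after both interferons, at log2 -7.03 ± 0.27 after IFNa and -6.48 ± 0.02 after IFNg, against -1.50 ± 0.24 in untreated cells (SD). That of Cxcl9 to Cxcl11 was 1.17 ± 0.06 after IFNa, 5.37 ± 0.19 after IFNg and 0.84 ± 0.35 in untreated cells. The groups overlapped only in the ratio of Cxcl9 to Cxcl11 between IFNa and untreated cells, which differed by 0.33 (exact two-sided permutation test, p = 0.286). The other 8 of 9 ratio comparisons each gave the smallest p that their design allows in an exact two-sided permutation test, 0.0571 for 4 against 3 arrays, 0.2 for 2 against 3 and 0.133 for 4 against 2. None could fall below the threshold of 0.05, and Benjamini-Hochberg adjusted values over the 9 comparisons were 0.225 to 0.286.

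**Figure D4:**
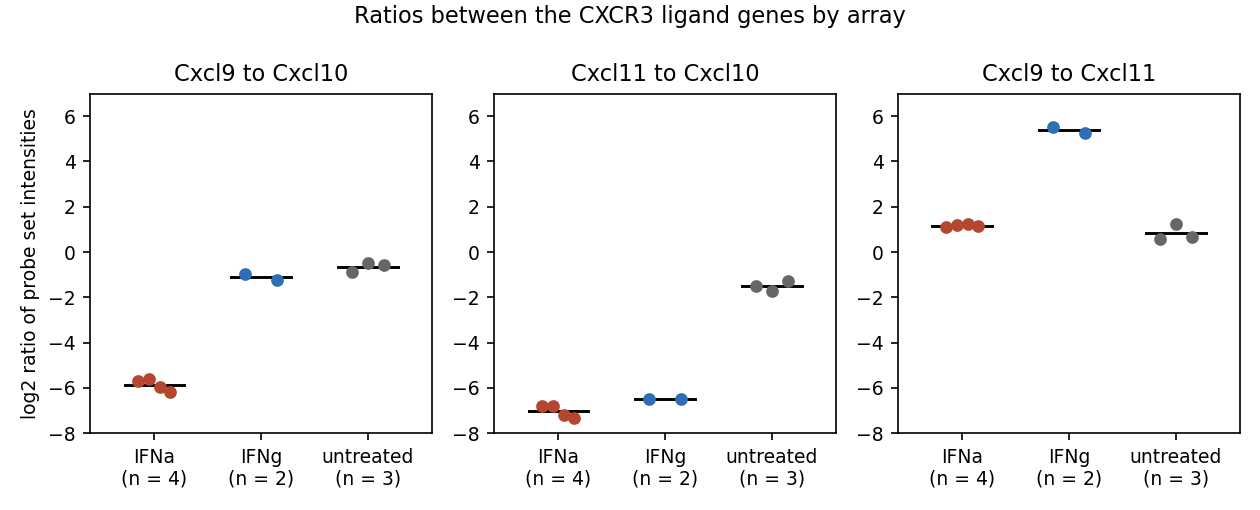
Log2 ratio of the intensities of 2 ligand probe sets in each array (points) after IFNa, after IFNg and in untreated cells, with group means as lines. The Cxcl9 to Cxcl10 ratio is at or below -5.62 in the 4 IFNa arrays and at or above -1.23 in the other 5.

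The genes with patterns most like each ligand were found by the root mean square (RMS) difference of log2 values over the 9 arrays, after the untreated mean of each gene was subtracted. These genes were chosen for their values on these arrays, so their changes are a description, with no test. For Cxcl9 the nearest were Acod1, Hcar2, Tnfaip2, Gatm and Calhm6, at RMS differences of 0.69, 0.86, 0.87, 0.88 and 0.91, and 7 of 19751 genes lay within 1. Acod1 had intensities of 415, 346, 496 and 409 after IFNa, 2876 and 3764 after IFNg, and 196, 159 and 192 in untreated cells. Its changes from untreated were log2 1.18 after IFNa and 4.18 after IFNg, and its IFNa arrays, unlike those of Cxcl9, all lay above its untreated arrays. Hcar2, a receptor gene for niacin, had 0.71 after IFNa and 2.97 after IFNg. Tnfaip2, a gene induced by tumour necrosis factor, and Calhm6, a gene of the calcium homeostasis modulator channel family, had 0.33 and 0.69 after IFNa and 2.62 and 2.52 after IFNg. Gatm, whose enzyme makes a precursor of creatine, had 0.18 after IFNa and 2.77 after IFNg.

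For Cxcl10 the nearest genes were Iigp1, Ifi205, BC023105, Ifi213 and Gbp5, at RMS differences of 0.60, 0.74, 0.79, 0.97 and 1.25, with 4 genes within 1. Iigp1, a GTPase gene of defence against intracellular pathogens, had intensities of 2453, 3105, 3513 and 4305 after IFNa, 5186 and 4381 after IFNg, and 75.9, 72.7 and 123 in untreated cells. Its changes from untreated were log2 5.22 after IFNa and 5.76 after IFNg, and its direct difference was -0.54, beside 0.67 for Cxcl10. Ifi213, of the family of DNA-binding IFI200 proteins, had 5.23 after IFNa and 2.94 after IFNg. Ifi205, of the same family, had 5.02 and 3.67. Gbp5, a guanylate-binding protein gene, had 3.72 after IFNa and 4.21 after IFNg. BC023105 had 5.37 and 6.30. Mean untreated levels of Iigp1, Ifi213 and BC023105, log2 6.46, 6.16 and 4.68, lay below the 95th percentile of the smell receptor genes, so these changes are inexact in size.

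For Cxcl11, 1062 of 19751 genes lay within an RMS difference of 0.1, the nearest being Cyp2e1, Klk1b16, Gpm6b, Pkdrej and Anks1b at 0.017 to 0.032. The ligands themselves were far apart, at 3.48 between Cxcl9 and Cxcl10, 2.16 between Cxcl9 and Cxcl11, and 4.37 between Cxcl10 and Cxcl11.

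None of the genes that neighbour the ligands on chromosome 5 was called in any comparison (limma). Of the 9 measured, 0 had an unadjusted p under 0.05 after IFNa, 3 after IFNg and 1 in the direct comparison, shares to be read beside 11.9%, 8.23% and 7.07% of all genes in these comparisons. Art3, whose annotated span overlaps Cxcl10 and Cxcl11, had intensities of 34.0, 28.8, 31.8 and 33.2 after IFNa, 31.2 and 29.5 after IFNg, and 31.6, 33.7 and 27.3 in untreated cells. Its changes were log2 0.05 and -0.02 after IFNa and IFNg, beside rises of 5.47 and 4.79 for Cxcl10. On the Cxcl9 side, Sdad1 had the largest change of the 4 nearest genes, 1.04 ± 0.22 after IFNg, with an adjusted p of 0.0658. Its intensities were 290, 213, 288 and 215 after IFNa, 457 and 383 after IFNg, and 179, 179 and 265 in untreated cells. Naaa, Ppef2 and Uso1 on that side changed by 0.35 to 0.45 after IFNg and by 0.09 to 0.36 after IFNa. On the Cxcl11 side, Nup54, Scarb2, Fam47e and Stbd1 had changes of -0.21 to 0.63 after IFNg and -0.19 to 0.24 after IFNa.

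The receptors and modifiers of the ligands did not pass the test in any comparison, at 0 of 10 measured genes (limma), with 1, 0 and 1 at an unadjusted p under 0.05 after IFNa, after IFNg and in the direct comparison. With 1.79%, 1.24% and 0.440% of all genes called higher and 0.856%, 0.111% and 0.537% lower, a list of this size is likely to hold no call, so the count says nothing particular about these genes. Their median changes in these comparisons were log2 0.04, -0.15 and 0.17, against medians over all genes of -0.02, -0.06 and 0.03. Cxcr3, the receptor, had intensities of 142, 125, 143 and 196 after IFNa, 137 and 142 after IFNg, and 204, 159 and 131 in untreated cells, and the groups overlapped. Ackr3, the atypical receptor that takes up Cxcl11, differed from untreated by log2 -0.22 ± 0.19 and -0.06 ± 0.22 after IFNa and IFNg. Dpp4, the protease that trims the ends of these chemokines, differed by 0.11 ± 0.25 and -0.22 ± 0.29. Mmp8, Mmp9 and Mmp12 encode matrix proteases that can cut chemokines. Of these, Mmp9 had the largest values, -0.52 ± 0.21 after IFNa (adjusted p = 0.349) and -0.43 ± 0.25 after IFNg (0.71). The proteoglycan genes Sdc1 and Sdc4 and the atypical receptor genes Ackr1 and Ackr2 were also not called. Without IFNa replicate 4 and untreated replicate 1, whose intensity range was narrow, 1 gene of this list was called lower after IFNa.

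Other chemokine genes of the CXC, C and CX3C families gave 0 of 14 calls in each comparison (limma), with 2 genes at an unadjusted p under 0.05 after IFNa, 2 after IFNg and 0 in the direct comparison. These counts are near the shares of all genes given above. Their median changes were log2 -0.12, -0.23 and 0.09. Pf4, which encodes platelet factor 4, changed by log2 -0.09 ± 0.13 after IFNa and 0.11 ± 0.16 after IFNg. Among CC chemokines, 3 of 18 measured genes rose after each interferon and 0 were called in the direct comparison, where 0 also had an unadjusted p under 0.05. Over all genes, 1.79% were called higher after IFNa and 1.24% after IFNg. In the direct comparison 0.440% were called higher and 0.537% lower. Median changes of the list were log2 0.03, -0.09 and 0.10. The 3 CC chemokine genes that rose were Ccl2, Ccl7 and Ccl12, which attract monocytes through CCR2. Ccl2 rose by 2.93 ± 0.34 after IFNa and 2.72 ± 0.40 after IFNg (adjusted p = 0.00101 and 0.00949). Ccl7 rose by 2.86 after both (0.00551 and 0.0255), and Ccl12 by 1.94 and 2.11 (0.00251 and 0.00909). The untreated level of Ccl12, log2 6.15, was at the low end, so the sizes of its rises are not exact. The IFNg calls rest on few arrays. Without IFNg replicate 2 the adjusted p was 0.137 for Ccl2, 0.294 for Ccl7 and 0.131 for Ccl12, and without IFNg replicate 1 it was 0.0858 for Ccl12. Ccl7 was also not called without IFNa replicate 1 (0.055), untreated replicate 1 (0.101) or untreated replicate 3 (0.0693).

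Among transcription factors of interferon and NF-kB signalling, 4 of 14 measured genes rose after IFNa, 5 rose after IFNg and 2 were lower after IFNa than after IFNg. Of all genes, 1.79%, 1.24% and 0.537% were called in these comparisons and directions. At an unadjusted p under 0.05 there were 8, 7 and 7 of the 14, against 11.9%, 8.23% and 7.07% of all genes. Median changes of the list were log2 0.24, 0.50 and -0.19, against -0.02, -0.06 and 0.03 over all genes. Nfkb1 had no probe set of its own. Stat2, part of the complex that binds the ISRE, rose by 3.07 ± 0.15 and 2.50 ± 0.18 after IFNa and IFNg (limma, adjusted p = 3.68e-06 and 0.000121). Irf1, an activator of the Cxcl9 and Cxcl10 promoters, had intensities of 2809, 2823, 2861 and 3073 after IFNa, 6083 and 6398 after IFNg, and 358, 660 and 716 in untreated cells. It rose by 2.39 ± 0.21 and 3.50 ± 0.26 (adjusted p = 0.000165 and 0.000125), and the direct difference of -1.11 ± 0.24 did not pass (0.0871). A second, dimmer Irf1 probe set gave 0.51 after IFNa (adjusted p = 0.23) and 1.36 after IFNg (0.0112).

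The factors that, like Cxcl9, differed between the interferons were Irf8 and Batf2. Irf8, a partner of other IRF proteins in macrophages, had intensities of 1475, 1591, 1720 and 1602 after IFNa, 6916 and 6541 after IFNg, and 1310, 2019 and 1860 in untreated cells. Its IFNa and untreated arrays overlapped and both IFNg arrays stood above them. Irf8 rose by log2 1.98 ± 0.18 after IFNg, and IFNa minus IFNg was -2.08 ± 0.17 (limma, adjusted p = 0.000532 and 0.000506). Batf2, a partner of IRF1 in macrophages, had intensities of 747, 747, 819 and 1235 after IFNa, 3335 and 2698 after IFNg, and 301, 319 and 258 in untreated cells. It rose by log2 1.57 ± 0.19 after IFNa and 3.36 ± 0.23 after IFNg (adjusted p = 0.00136 and 7.63e-05), and IFNa minus IFNg was -1.79 ± 0.22 (adjusted p = 0.00421, and 0.0967 without IFNg replicate 1). Irf7, named after its values were seen, rose by 3.18 after IFNa and 1.81 after IFNg (adjusted p = 0.000165 and 0.0333). Its direct difference of 1.37 ± 0.32 did not pass (limma, adjusted p = 0.115). Rela, an NF-kB subunit gene, changed by -0.29 ± 0.21 and 0.09 ± 0.26. Without the 2 arrays of narrow range, 3 genes of the list were called higher and 4 lower after IFNa than after IFNg, and quantile normalization called 2 higher.

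Of 9 brakes on this signalling, 2 rose after each interferon and 1 was higher after IFNa than after IFNg, against 1.79%, 1.24% and 0.440% of all genes. At an unadjusted p under 0.05 there were 2 after IFNa, 6 after IFNg and 7 in the direct comparison, and median changes were log2 0.13, 1.02 and -0.65. Usp18, which dampens the type I receptor, rose by log2 4.67 ± 0.27 after IFNa and 2.40 ± 0.32 after IFNg (limma, adjusted p = 1.1e-05 and 0.00545) and was higher after IFNa by 2.27 ± 0.31 (0.00675). Without IFNg replicate 1 or 2 the Usp18 rise after IFNg (0.0967 and 0.0637) and its direct difference (0.0995 and 0.133) were not called. Socs1, an inhibitor of JAK kinases, rose by 2.00 ± 0.27 and 3.58 ± 0.33 (0.00296 and 0.000512), and the direct difference of -1.57 ± 0.31 did not pass (0.0534). Without the 2 arrays of narrow range, 4 of these genes were called higher after IFNg and 5 were called lower after IFNa than after IFNg. Of 7 interferon receptor and kinase genes, Jak2 was called, higher after IFNa by 1.10 ± 0.22 (adjusted p = 0.0318), beside 1.79% of all genes. Leaving out any one of 6 arrays ended that call: IFNa replicates 1, 2 and 3 (0.0891, 0.0544 and 0.0962), IFNg replicates 1 and 2 (0.0677 each) and untreated replicate 2 (0.0799). Median centring also ended it (0.0525).

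Of 8 genes for factors in the control of cytokine mRNA decay, Zfp36l2 was called, lower after IFNa by log2 -1.0 ± 0.21 (limma, adjusted p = 0.0403), beside 0.856% of all genes. It lost the call without any one of 7 arrays, all but the 2 IFNg arrays, with adjusted p of up to 0.145, and under median centring (0.0672). Of 10 measured genes for ligands known to induce CXCR3 ligands, Il18 rose after IFNa, by 2.24 ± 0.28 (0.00172, beside 1.79% of all genes called higher), and had 1.34 ± 0.34 after IFNg (0.134). Ifng transcript had intensities of 94.0, 84.9, 90.1 and 103 after IFNa, 91.6 and 89.1 after IFNg, and 135, 113 and 88.4 in untreated cells, with no call. Ifnb1 and Tnf were also not called.

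**Figure D5:**
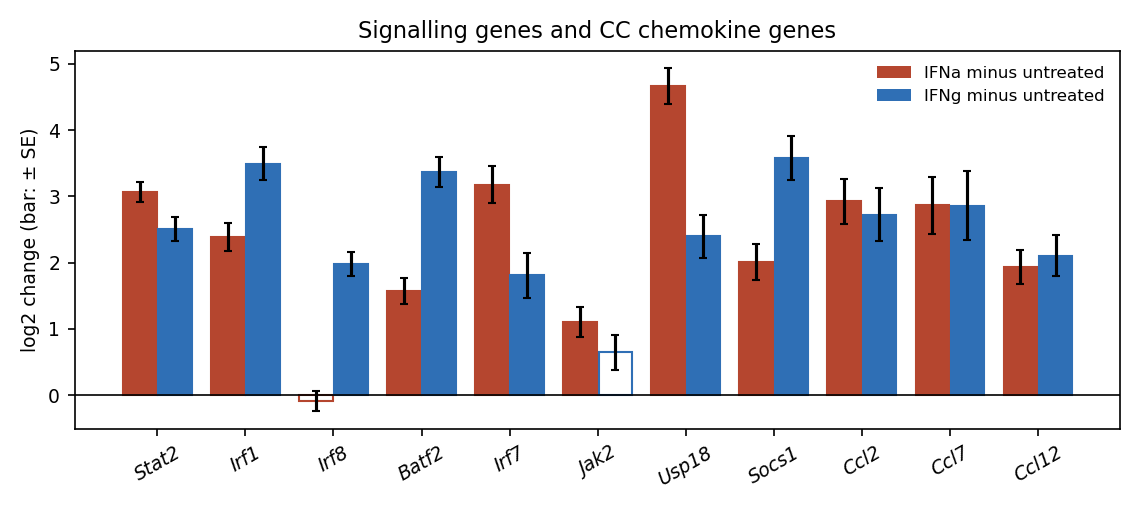
Log2 change from untreated after IFNa (left bar of each pair) and IFNg (right bar), with SE, for signalling genes and CC chemokine genes; open bars did not pass an adjusted p under 0.05. Irf8 is at -0.09 after IFNa and 1.98 after IFNg, Usp18 at 4.67 and 2.40, and Ccl2 at 2.93 and 2.72.

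The defining markers of the sorted cells were present. Adgre1, which encodes F4/80, had intensities of 7782 to 9125 after IFNa, 8334 and 8361 after IFNg, and 7966 to 8498 in untreated cells. Icam2 changed by log2 -0.24 ± 0.14 and 0.05 ± 0.17 after IFNa and IFNg, without passing. The summed intensity of 16 measured large macrophage markers was 97961 to 109141 after IFNa, 102750 to 106443 after IFNg and 103861 to 109561 in untreated cells. Of all genes, 0.856% were called lower after IFNa and 0.111% after IFNg. Gata6, the transcription factor of resident peritoneal macrophages, was the single marker of these 16 called, lower by -1.05 ± 0.17 after IFNa and -1.16 ± 0.21 after IFNg (limma, adjusted p = 0.00997 and 0.0242). It lost both calls without untreated replicate 2 (0.0641 and 0.114), and the IFNg call without IFNg replicate 1 (0.107), IFNg replicate 2 (0.337) or untreated replicate 3 (0.0601). The part of this fall in the ligand results was not tested.

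No marker of another cell type was called (limma), with at most 2 of a list at an unadjusted p under 0.05. Over all genes, 1.79%, 1.24% and 0.440% were called higher after IFNa, after IFNg and in the direct comparison. The shares called lower were 0.856%, 0.111% and 0.537%, and 11.9%, 8.23% and 7.07% had an unadjusted p under 0.05. Lists of this size are likely to hold no call, so its absence says little about whether other cells were present. The 9 measured B cell markers summed to 882 to 2457 after IFNa, 886 to 954 after IFNg and 1061 to 1338 in untreated cells, the highest in IFNa replicate 2. The IFNg sums lay below the untreated ones. The part of these differences in the ligand results was not tested beyond leaving out replicate 2, with the values given above. The 12 T and NK cell markers summed to 790 to 1127 after IFNa, 805 to 823 after IFNg and 817 to 1104 in untreated cells, and 10 of them had a mean under 100. The 14 small macrophage, monocyte and dendritic cell markers summed to 9635 to 13921 after IFNa, 10526 to 11519 after IFNg and 10153 to 11838 in untreated cells. Neutrophil and eosinophil, mast cell, and mesothelial and stromal cell markers also gave sums that overlapped between each treated group and untreated cells. Mast cell sums nonetheless reached higher after IFNa, at 1476 to 3145, against 1513 to 1598 after IFNg and 1214 to 1618 in untreated cells. Median intensity was 162.2 to 178.3 over the arrays. The log2 distance between the quartiles of an array was 2.16 in IFNa replicate 4, 2.27 in untreated replicate 1 and 2.68 to 3.03 in the others. The 4 called changes of Cxcl9 and Cxcl10 kept their call and direction without these 2 arrays.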

How the data were processed

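Per the labels, RNA of sorted cells was labelled with an Affymetrix whole-transcript kit and hybridised to single-colour arrays. Per the submitters' processing notes, Affymetrix Power Tools and RMA were used, with no version. The authors deposited RMA intensity, not logged; which arrays were normalized together and the genome build are not given in the sources used here. Log2 was taken, with no pseudocount or filter. Of 24922 probe sets, 21425 had 1 symbol in the platform table, 1399 several and 2098 none; the brightest with 1 symbol stood for each of 19752 genes, of which 19677 were found in RefSeq. Arrays give no counts, and their number limits the precision.

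The main model, in limma 3.58.1 (R 4.3.3), had a mean for each of the 3 groups and took in all 9 arrays (6 residual and 3.62 prior degrees of freedom). It assumes one spread for the 3 groups, which the 2 IFNg arrays could hardly give alone. P-values were two-sided and Benjamini-Hochberg adjusted over all genes; a gene was called at an adjusted p under 0.05. Ratios had exact permutation tests (SciPy 1.17.1). The fit was tested on simulated data. Array weights used limma's gene-by-gene method, since the REML estimate did not converge. The members and lists were chosen with earlier results of these data known. Named genes were the ligands, all measured receptors and modifiers, up to 4 called genes of each other pathway list by smallest p with 8 genes fixed by name, the 5 nearest genes to each ligand (predicted genes left out), the neighbours on the chromosome, and up to 2 called markers of each cell type with Adgre1, Icam2 and Gata6. Alternatives were 2 normalizations, 2 filters on dim genes, 2 variance models, array weights, 2 replicate blocks, other probe set rules, a 2-group fit, a stricter threshold and leaving out arrays.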

Additional observations from a re-analysis of the deposited data

Results flagged for a closer look

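In the IFNa group, replicate 4 stood apart from the other 3 arrays in 2 of 20 items examined, both of them gene levels, where chance gives about 1 in 20. For Cxcl11 the gap to the nearest array made up 0.984 of the range of the group on the log2 scale, above Dixon's 95% critical value for 4 samples; its intensity was 72.4 there and 61.6 to 61.8 in the other 3. For Ifnb1, the interferon beta gene, the share was 0.912, with an intensity of 81.4 in replicate 4 and 59.5, 61.2 and 59.5 in the others. For both genes the other 3 arrays were tied or nearly tied at the low end. A small departure from such values gives a large share, so the critical value and the chance rate may not hold here. Replicate 4 is also the array with the narrowest intensity range, with a log2 distance of 2.16 between its quartiles, and the part of that range in these values was not tested.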

How the results depend on the processing

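Of 282 values of the ligand genes under alternatives, 6 changed sign or side of the threshold or moved. The 4 called changes of Cxcl9 and Cxcl10 kept their call and direction in all 92 of theirs. Array weights turned Cxcl9 in IFNa against untreated to log2 -0.0046 and brought Cxcl10 in IFNa against IFNg past the threshold, at 0.53; the cause was not tested. Cxcl11 in IFNa against IFNg turned to -0.011 under quantile normalization and to -0.094 with a replicate block by the description numbers. Quantile normalization also moved the ratio of Cxcl9 to Cxcl11 in IFNa against IFNg to -3.94. Leaving out 1 array at a time, Cxcl11 in IFNa against untreated ran from -0.12 to 0.057, Cxcl9 after IFNg from 4.11 to 4.58, Cxcl9 in IFNa against IFNg from -4.31 to -3.84, Cxcl10 after IFNa from 5.29 to 5.58 and Cxcl10 after IFNg from 4.62 to 4.91. Filters on dim genes removed Cxcl11, which has no value there. Whether replicate numbers pair the arrays was not settled. Deviations of same-numbered arrays correlated at -0.211 to 0.604 by title and -0.442 to 0.106 by description. Those of differently numbered arrays ran from -0.613 to 0.609 under either numbering. Deviations of the 2 IFNg arrays mirror each other by construction, so their correlations say little about pairing. Among other named genes, 61 of 1056 alternative values were no longer called and 0 reversed. The 523, 267 and 193 genes called for IFNa over untreated, IFNg over untreated and IFNa over IFNg became 5573, 6167 and 1645 with array weights, 1106, 503 and 542 without the 2 arrays of narrow range, and 278, 131 and 90 at an adjusted p under 0.01. In IFNa against untreated they became 921 with quantile normalization and 827 and 924 with blocks by title and description; in IFNg against untreated, 699 with the title block and 119 in the 2-group fit. Leaving out 1 array gave 288 to 600, 80 to 391 and 42 to 276.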
